A study of Homo sapiens and Mus musculus with 20 samples.

Results

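The BCL2 family genes BCL2, BCL2L1, MCL1, BCL2L11, PMAIP1, BID, BAK1, BAD, BIK and BMF were examined in 12 RNA-seq libraries of IMR90, a fibroblast line from human fetal lung. The genes were taken by symbol. No rule on their measured values picked them, but the list was chosen with earlier results of these data known. Of the 10 genes, 9 were listed in at least 1 IMR90 table, out of 17554 genes listed in all. BIK, which encodes a BH3-only protein of the endoplasmic reticulum, was listed in none. BCL2 was listed with A485 and MS-275 and not with pyruvate, so 9, 9 and 8 of the genes had values in the 3 comparisons.

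The BCL2 family governs the mitochondrial route to apoptosis. Pro-survival members (BCL2, BCL-XL from BCL2L1, and MCL1) bind and restrain the effectors, such as BAK1, which otherwise open the outer mitochondrial membrane and release cytochrome c. BH3-only proteins, among them BIM from BCL2L11, NOXA from PMAIP1, BID, BAD, BIK and BMF, carry a short BH3 helix that occupies the groove of the pro-survival members, and some also engage the effectors directly. Senescent fibroblasts are known for resistance to apoptosis, and BCL-XL is among the proteins that senolytic drugs act upon.

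The study asked how histone lactylation relates to cellular senescence, and the treatments alter enzymes or metabolites tied to it. All 12 libraries came from wild-type IMR90 fibroblasts, and each treatment had 2 libraries and its own 2 untreated control libraries. A485, an inhibitor of the acetyltransferase p300, was set against Control2. MS-275, which inhibits the class I histone deacetylases, was set against Control3, and pyruvate against Control6. Per the study's text, pyruvate was given to senescent cells, whereas the labels give no passage number, dose or time for any group. IMR90 is 1 line from 1 source, and nothing states that replicates came from separate cultures, so the p-values measure the spread between these libraries, which may be technical.

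The libraries held 24179065 to 46971227 reads in listed genes, and mitochondrial genes took 2.767% to 6.905% of the normalised values. Of 10 fibroblast markers, 10 were listed in each comparison, while the endothelial markers PECAM1 and CDH5, the epithelial markers CDH1, KRT5 and KRT14 and the leukocyte markers PTPRC and CD3E were listed in none. The 2 libraries of Control3, and the 2 of MS-275, stood further apart than any other pair, with a chi-square statistic per gene of 397 and 456 against 4.54 to 109 in the other 4 groups. The MS-275 results are therefore given pooled and within each replicate number. In bulk RNA, fewer cells expressing a gene and less of its RNA per cell cannot be told apart.

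Promoter sequences are shown for BCL2L11 and BMF, the BH3-only genes with the widest differences below. Each is the RefSeq window from 250 bases before to 50 bases after the annotated start (GRCh38.p14), written 5′ to 3′ on the strand of the gene, and capitals mark matches to either of 2 short motifs. The BCL2L11 window is chr2:111120664-111120963 on the plus strand, and the BMF window, the first of 2 in the table, is chr15:40108830-40109129 on the minus strand.
BCL2L11: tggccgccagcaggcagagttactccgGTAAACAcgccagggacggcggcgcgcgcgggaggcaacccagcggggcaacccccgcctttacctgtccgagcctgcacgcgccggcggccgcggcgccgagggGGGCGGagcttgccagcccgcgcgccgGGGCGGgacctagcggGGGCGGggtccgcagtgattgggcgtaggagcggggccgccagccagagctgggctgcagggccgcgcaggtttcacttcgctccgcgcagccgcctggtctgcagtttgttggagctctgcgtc
BMF: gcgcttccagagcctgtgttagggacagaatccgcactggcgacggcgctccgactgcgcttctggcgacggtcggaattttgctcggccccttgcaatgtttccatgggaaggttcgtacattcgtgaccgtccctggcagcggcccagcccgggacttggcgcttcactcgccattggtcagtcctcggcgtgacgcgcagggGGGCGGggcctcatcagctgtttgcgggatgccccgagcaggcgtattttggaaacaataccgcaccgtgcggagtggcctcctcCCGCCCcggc
The motifs were a forkhead (FOXO-type) core, GTAAACA, and a GC box, GGGCGG. They were chosen after the sequences had been read, and each was searched on both strands. The forkhead core stood at position -223 of BCL2L11, counted back from the base before the start. GC boxes numbered 3 in the BCL2L11 window and 2 in the BMF window, and no matches in these windows overlapped. Over all 35116 promoters of this length in the table, 3.42% held the forkhead core and 45% a GC box. Of the 10 family genes 8 had a promoter entry, and the forkhead core was in the window of BCL2L11 alone among them. A match is only a run of letters and was not tested as a binding site.

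Levels can be compared between genes only per length, as normalised read count per kb of exon. In untreated Control2, MCL1 was the most abundant of the 9 genes at 2380 and 2320 per kb, followed by PMAIP1 at 1449 and 1941. BID (634 and 722) and BCL2L1 (527 and 717) came next and overlapped each other, then BAK1 (517 and 417) and BAD (271 and 345). BMF (27.9 and 35.5), BCL2L11 (18.1 and 37.8) and BCL2 (12.4 and 23.1) were the 3 lowest, and their ranges overlapped with those of the next gene in the order. Control3 also had MCL1 highest, at 2036 and 2753 per kb. Control6 differed from both. There BCL2L1 led at 1012 and 1102 per kb, MCL1 was at 482 and 479, and PMAIP1 at 77.7 and 93.8. These tables were normalised separately, so levels across them were not tested.

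**Figure D1:**
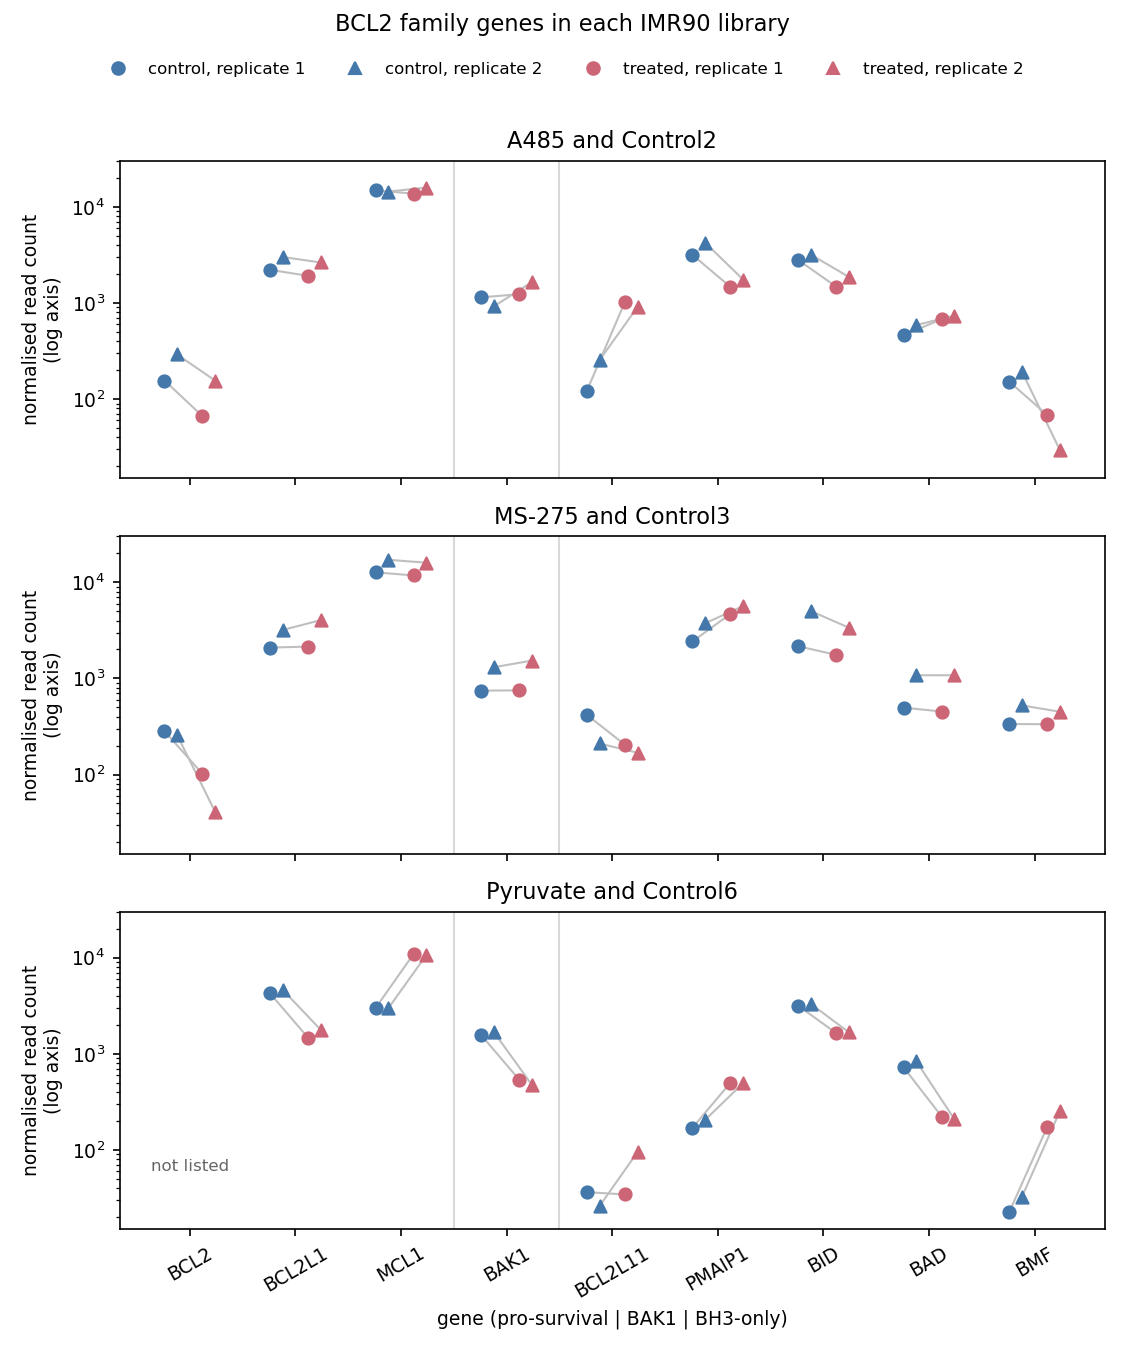
Normalised read counts (log axis) of the 9 listed BCL2 family genes in each of the 12 IMR90 libraries, with 1 panel per comparison. Blue points are control and red points treated libraries, circles are replicate 1 and triangles replicate 2, and grey lines join equal numbers as a guide to the eye. BCL2L11 rises from 122 and 255 to 1026 and 909 in the A485 panel, whereas in the MS-275 panel most triangles lie above their circles in both arms.

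With A485, BCL2L11 rose and the BH3-only genes PMAIP1 and BID fell, while the MCL1 and BCL2L1 values of the groups overlapped. Tests used limma on log2(value + 1), with p-values adjusted over all genes tested by the Benjamini-Hochberg method. A gene counts as called where the adjusted p is under 0.05 and the groups differ by more than 1 (log2) in either direction. Of 9 family genes, 1 was called higher, beside 3.31% of all 16084 genes tested, and 1 was called lower, beside 7.06%. Past the adjusted p alone were 3 of 9, beside 12.6% of all genes. The median log2 fold change of the family was -0.20 against 0.01 over all genes.

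BCL2L11 encodes BIM, which binds every pro-survival member. Its normalised counts were 122 and 255 in Control2 and 1026 and 909 with A485, so the lower treated library lay well above the higher control. The log2 fold change was 2.45 ± 0.39 (SE, n = 2 per group, adjusted p = 0.0156 by limma), a 5.45-fold rise. Its exons share 10.8% of their length with MIR4435-2HG, a long noncoding RNA on the opposite strand, and the strand setting of the counting is not given in the sources used here. MIR4435-2HG went the other way, from 2179 and 2945 to 35.4 and 130 with A485. How many reads the genes share was not tested. With either A485 library left out, BCL2L11 had a log2 fold change of 2.36 to 2.53 and was no longer called (adjusted p 0.13 to 0.163), and 1667 called genes became 117 without replicate 1 and 167 without replicate 2. Without Control2 replicate 1 or 2 the called genes numbered 844 and 520.

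PMAIP1 encodes NOXA, a selective ligand of MCL1 and a classical p53 target. It stood at 3167 and 4242 in Control2 and at 1467 and 1752 with A485, and the groups did not overlap. Its log2 fold change was -1.19 ± 0.21 (adjusted p = 0.0215), a 2.29-fold fall. The call was lost without either A485 library (adjusted p 0.12 to 0.183), without Control2 replicate 2 (-0.98, adjusted p = 0.0915), and when libraries were scaled to equal totals (-0.80, adjusted p = 0.0272). Scaling to equal totals put the median of all genes at 0.40 and left PMAIP1 1.20 below that median on the log2 scale.

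BID links death receptors to mitochondria once caspase-8 has cleaved it. It fell from 2803 and 3191 to 1483 and 1870, with a log2 fold change of -0.84 ± 0.19 (adjusted p = 0.042), which is short of the fold required for a call. BID no longer passed with equal totals (-0.45, adjusted p = 0.117), without the intensity trend (adjusted p = 0.123) or without any 1 of the 4 libraries (-1.01 to -0.68, adjusted p 0.103 to 0.249). BMF, a BH3-only protein linked to loss of cell attachment, was at 152 and 193 in Control2 and at 68.3 and 29.4 with A485. Its difference of -1.91 ± 0.52 did not pass the test (adjusted p = 0.0646), although the groups did not overlap. DESeq2 on recovered reads called BMF (adjusted p = 0.0127) and edgeR did not (adjusted p = 0.073). BAD, which growth factor signalling holds in check by phosphorylation, was at 462 and 590 against 679 and 738 with A485, a difference of 0.44 ± 0.23 (adjusted p = 0.264). BAD shares 23.7% of its exon length with GPR137 on the opposite strand, whose own difference was 0.38.

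Among the pro-survival genes, MCL1 had 14806 and 14435 in Control2 and 13737 and 15866 with A485, and the groups overlapped. Its log2 fold change of 0.01 had a 95% interval of -0.41 to 0.44 at this depth of replication. BCL2L1 had 2213 and 3007 against 1918 and 2640, also overlapping, with a difference of -0.20 ± 0.24. BCL2 was at 156 and 291 in Control2 and at 66.6 and 156 with A485. The lower control and the higher treated library almost met, and the difference of -1.06 ± 0.54 did not pass (adjusted p = 0.247). The effector BAK1 was at 1144 and 923 against 1236 and 1655, a difference of 0.48 ± 0.23 (adjusted p = 0.224).

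The summed level of the 10 fibroblast markers, most of them matrix genes, went from 2046132 to 2559930 in Control2 to between 564630 and 681166 with A485. Its part in the values of the family was not tested. Of 5 endothelial markers 3 were listed, summing to 508 to 1289 in Control2 and 127 to 189 with A485. The 2 of 5 epithelial markers listed summed to 131 to 166 in Control2 and 232 to 262 with A485, and the 2 of 5 leukocyte markers to 22.5 to 24.5 and 32.9 to 46.3. None of these sums overlapped between the groups.

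**Figure D2:**
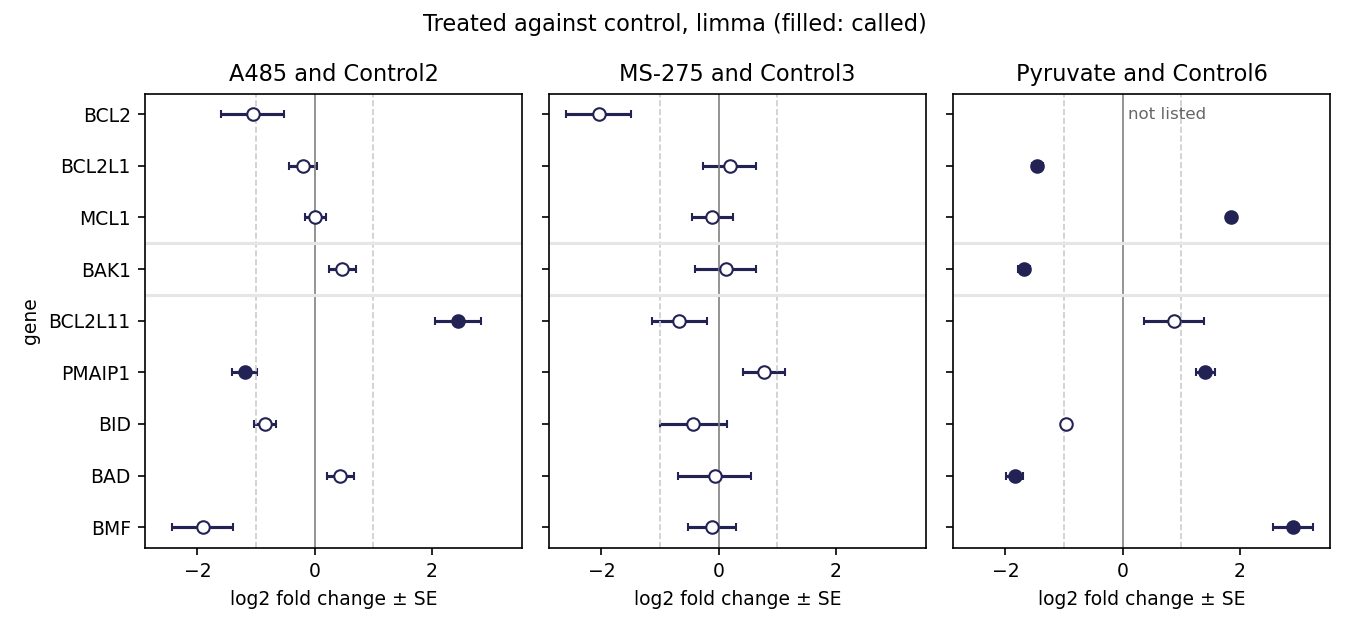
Log2 fold change of each listed family gene, treated against control, in the 3 comparisons, with bars of 1 SE from limma and 2 libraries per group. Filled points are called genes, dashed lines mark a log2 fold change of 1 in either direction, and grey lines part pro-survival genes, BAK1 and BH3-only genes. BCL2L11 and PMAIP1 are the filled points with A485, none is filled with MS-275, and 6 of 8 are filled with pyruvate.

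With MS-275, no family gene passed the pooled test. Every family gene tested kept the same direction within both replicate numbers, some by almost nothing. The share of all genes that did so was not counted. BCL2 was the furthest lower and PMAIP1 the furthest higher. The pooled limma fit called 0% of all 15883 genes higher and 0% lower, with 1730 genes at an unadjusted p under 0.05. edgeR also called 0 genes and DESeq2 called 575, none of them a family gene. Leaving out Control3 replicate 1 or 2, or MS-275 replicate 1 or 2, gave 390, 419, 12 and 0 called genes, again with 0 family genes. The spread between libraries of 1 group was wide, and samples of the same number deviated together (correlation of deviations 0.728), although no label says what a number stands for. The 3 of 5 endothelial markers listed summed to 782 to 1391 in Control3 and 588 to 678 with MS-275, and the fibroblast, epithelial and leukocyte sums overlapped. Their part in the values below was not tested.

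BCL2, the founding member of the family, had 282 and 258 in Control3 and 102 and 40.9 with MS-275. Both treated libraries lay below both controls. The log2 fold change was -2.05 ± 0.55 (adjusted p = 0.312), and it was -1.46 within number 1 and -2.63 within number 2. BCL2 was the 1 family gene of 9 that was lower by over 1 (log2) in number 1 and in number 2 alike, beside 4.85% of all genes, while no family gene was higher by that much in both, beside 6.81% of all genes. With the number as a block in limma, BCL2 was called (adjusted p = 2.7e-05). That fit called 1 of 9 family genes lower, beside 6% of all genes, and 0 higher, beside 7.74%.

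PMAIP1 had 2421 and 3743 in Control3 and 4693 and 5664 with MS-275, again without overlap. Its difference was 0.78 ± 0.36 pooled (adjusted p = 0.569), 0.96 within number 1 and 0.60 within number 2, and the adjusted p was 4.85e-05 with the block. BCL2L11 had 417 and 210 against 204 and 168. The differences within numbers were -1.03 and -0.32, and the adjusted p was 0.0233 with the block against 0.731 without it. BID had 2158 and 5025 against 1760 and 3369, so the groups overlapped, with differences within numbers of -0.29 and -0.58 and an adjusted p of 0.00689 with the block. The block fit thus put 4 of 9 family genes past the adjusted p, where 39.3% of all genes were past it.

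For the remaining 5 genes, as for BID, the replicate number separated the libraries more than the treatment did. BAD had 496 and 1078 in Control3 and 452 and 1077 with MS-275, differences of -0.13 and -0.001 within numbers. BAK1 had 745 and 1307 against 750 and 1532, and BCL2L1 had 2091 and 3190 against 2142 and 4036. MCL1 had 12667 and 17128 against 11772 and 15960, and BMF had 335 and 524 against 334 and 449. In each of these genes number 2 exceeded number 1 in both arms, and the pooled log2 fold changes ran from -0.11 to 0.19. The pooled 95% interval for BAD, -1.68 to 1.55, shows how little the unpaired comparison could resolve.

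With pyruvate, MCL1, PMAIP1 and BMF rose and BCL2L1, BAK1 and BAD fell by more than the fold required, so both the pro-survival and the BH3-only genes split in direction. Of 8 listed family genes 3 were called higher, beside 31% of all 12013 genes tested, and 3 lower, beside 23.1%. Past the adjusted p alone were 7 of 8, beside 80.9% of all genes. The family's median log2 fold change was -0.05 and that of all genes -0.01. Fold changes in this comparison went with the GC content of the transcript (Spearman -0.701 across 11888 genes, which are not independent replicates, against -0.112 for A485 and -0.016 for MS-275). The median log2 fold change was 1.72 in the tenth of genes with the least GC and -1.18 in the tenth with the most. Each family gene's value is therefore followed by its value after a smooth trend on exonic length and GC content was removed from each library. That removal also moved the median of all genes to 0.20. The summed fibroblast markers overlapped between the groups (1311730 to 1427766 in Control6, 1334333 to 1347966 with pyruvate). The 2 of 5 endothelial markers listed summed to 358 to 481 in Control6 and 1448 to 1469 with pyruvate, the 1 of 5 epithelial markers was at 49.9 to 58.0 and 21.6 to 44.3, and no leukocyte marker was listed. Their part in the values of the family was not tested.

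MCL1, a short-lived pro-survival protein, had 2997 and 2977 in Control6 and 10961 and 10632 with pyruvate. The treated libraries stood far above the controls, and the log2 fold change was 1.85 ± 0.06 (adjusted p = 4.03e-10), a 3.61-fold rise. With the trend removed it was 1.26 and MCL1 was still called (adjusted p = 1.8e-09). BCL2L1 went the opposite way, from 4245 and 4623 to 1468 and 1773, a log2 fold change of -1.46 ± 0.10 (adjusted p = 6.46e-08). Its transcript is 58.2% GC, and with the trend removed the difference was -0.29, no longer of the size of a call. Its exons share 41.3% of their length with the antisense RNA ABALON.

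The effector BAK1 fell from 1562 and 1676 to 536 and 474 (-1.68 ± 0.11, adjusted p = 5.22e-08), and by 0.36 with the trend removed. Its GC content was 58.8%. BAD, the most GC-rich of the genes at 66.3%, fell from 720 and 834 to 222 and 209 (-1.84 ± 0.14, adjusted p = 2.76e-07), whereas with the trend removed the difference was -0.25 and did not pass (adjusted p = 0.123). GPR137, which overlaps it, had a difference of -2.17.

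PMAIP1, at 36.7% the least GC-rich of the genes, rose from 170 and 205 to 500.4 and 496 (1.41 ± 0.16, adjusted p = 8.54e-06). With the trend removed the difference was 0.17 and did not pass (adjusted p = 0.345). BMF moved against the trend, from control values near the lower end of those listed (23 and 30 reads in Control6). Its transcript is 54.7% GC, and it rose from 22.6 and 32.6 to 174 and 254, a log2 fold change of 2.91 ± 0.34 (adjusted p = 8.94e-06) that became 3.82 with the trend removed.

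BID fell from 3171 and 3310 to 1641 and 1673 (-0.97 ± 0.07, adjusted p = 2.34e-07), just short of the fold for a call, and by 0.47 with the trend removed. BCL2L11 was near the lower end of the values, with 36.3 and 26.04 in Control6 and 34.4 and 95.1 with pyruvate. The groups overlapped and the difference of 0.88 ± 0.52 did not pass (adjusted p = 0.138), nor did the 0.69 left with the trend removed (adjusted p = 0.255). Without pyruvate replicate 1 it was 1.60 and called (adjusted p = 0.013), so the value rests on which treated library is kept. With the trend removed, 2 of 8 family genes were called higher, beside 21.4% of all genes, and 0 lower, beside 10.4%.

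**Figure D3:**
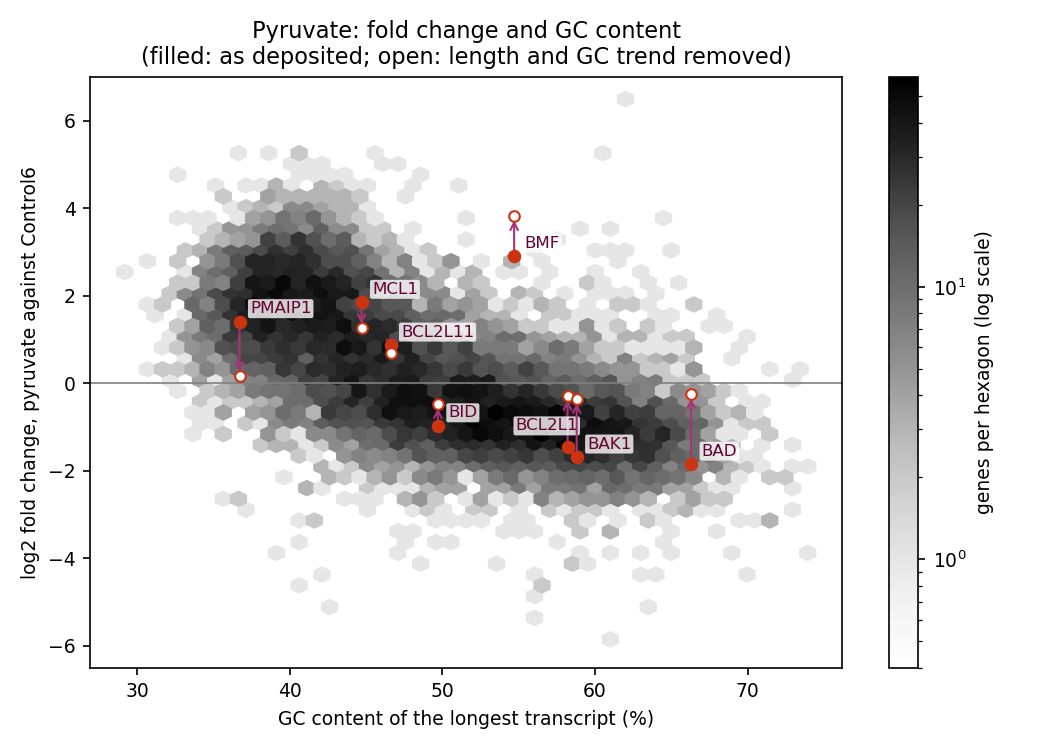
Log2 fold change with pyruvate against Control6 (y axis) and GC content of the longest transcript in % (x axis), for 11888 genes as hexagons shaded by their number on a log scale and for the 8 listed family genes as points. Filled points are the values as deposited, open points those after the length and GC trend was removed, and arrows join them. The open points of BCL2L1, BAK1, BAD and PMAIP1 lie between -0.36 and 0.17, those of MCL1 and BMF at 1.26 and 3.82.

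To describe the balance of the roles, normalised counts per kb of exon were summed in each library. The sums took the listed pro-survival and the listed BH3-only genes among the family genes named at the start. Further relatives, such as the pro-survival gene BCL2L2 and the BH3-only gene BBC3, were left out. In Control2 the pro-survival sum was 1.22 and 0.993 times the BH3-only sum, and with A485 it was 1.7 and 1.78 times. The pro-survival sums overlapped (2919 and 3060 against 2670 and 3191 per kb), while the BH3-only sums went from 2399 and 3081 to 1569 and 1797. PMAIP1 made up 60.4% and 63.0% of the BH3-only sum in Control2 and 42.8% and 44.6% with A485, and BCL2L11 went from 0.754% and 1.23% to 9.69% and 7.51%. Without PMAIP1 the ratio was 3.07 and 2.68 in Control2 against 2.97 and 3.21 with A485, and the groups overlapped.

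With MS-275 the ratio was lower than in Control3, at 0.831 and 0.863 against 1.27 and 0.979. PMAIP1 made up 74.0% and 63.3% of the BH3-only sum there, against 55.1% and 47.5%. Without PMAIP1 the ratio was 3.19 and 2.35 against 2.83 and 1.86. Those values overlapped between the groups, and within each replicate number the MS-275 library had the higher one. With pyruvate the ratio was 2.75 and 2.7 against 1.22 and 1.18 in Control6. MCL1 made up 32.3% and 30.3% of the pro-survival sum in Control6 and 83.4% and 80.2% with pyruvate. That sum held neither BCL2, which was not listed, nor BCL2L2. In normalised counts, BCL2L2 had 4238 and 4257 in Control6 and 1613 and 1560 with pyruvate. These ratios weigh transcripts, not proteins, and no test was made of them. The GC trend of the pyruvate libraries was not removed from the sums.

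**Figure D4:**
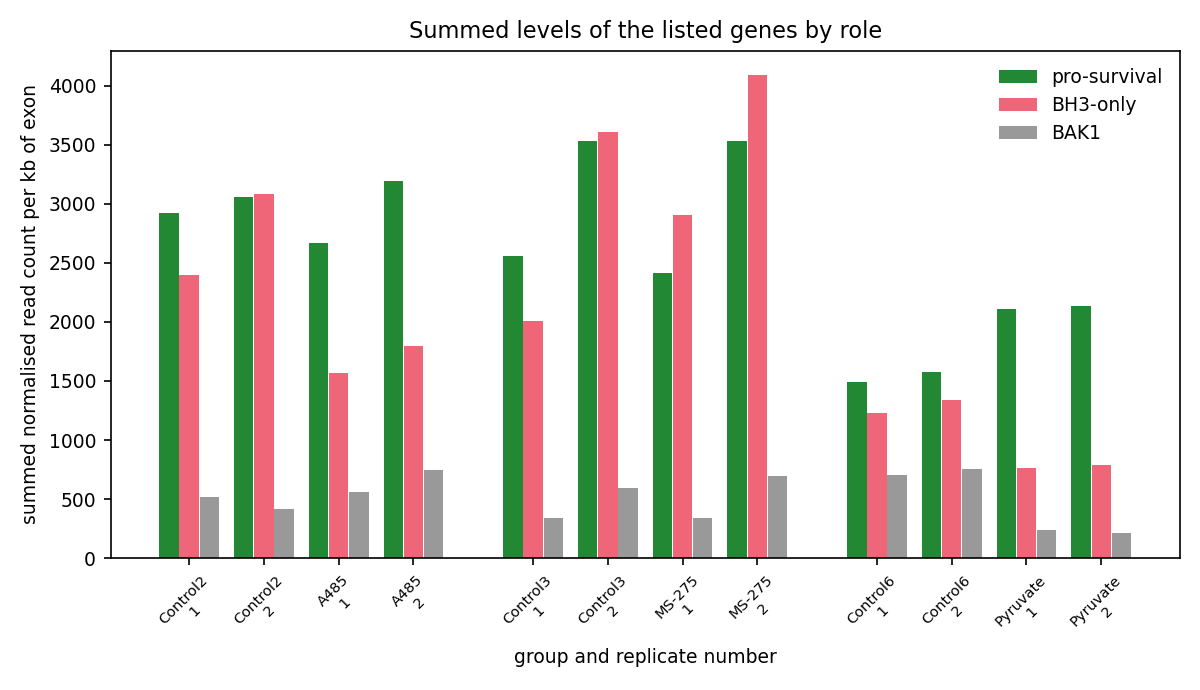
Normalised read count per kb of exon in each of the 12 libraries, summed over the listed family genes named at the start. Pro-survival genes are green, BH3-only genes pink and BAK1 grey. Further relatives such as BCL2L2 and BBC3 are left out. The 2 A485 libraries have lower BH3-only bars than both Control2 libraries. Both MS-275 libraries have BH3-only bars above their pro-survival bars. So do the untreated replicate 2 of Control3 (3608 against 3533) and replicate 2 of Control2 (3081 against 3060). The pyruvate libraries have lower BH3-only bars than both Control6 libraries (767 and 788 against 1226 and 1341), with the GC trend not removed.

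The A485 and MS-275 effects were also compared directly, as a contrast over the 8 libraries of both. Each gene had 1 spread shared by both experiments, although libraries of a group stood further apart in the MS-275 comparison than in the A485 comparison. BCL2L11 differed by 3.12 ± 0.67 on the log2 scale (adjusted p = 0.0487), being 2.45 with A485 and -0.67 with MS-275, and was the 1 family gene of 9 past the threshold, beside 3.81% of 15130 genes. The call was marginal, since it was lost with a pseudocount of 0.1 (adjusted p = 0.0503) and without the intensity trend (adjusted p = 0.061). PMAIP1 differed by -1.97 ± 0.43, from -1.19 with A485 and 0.78 with MS-275 (adjusted p = 0.0551). BMF differed by -1.80 (adjusted p = 0.228), and the other 6 genes by -0.41 to 0.99.

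Beyond the named genes, a list of 48 further genes of the apoptosis machinery was read from the same fits, with 44, 45 and 42 of them tested in the A485, MS-275 and pyruvate comparisons. The list covers other BCL2 relatives, the apoptosome and caspases, caspase inhibitors, death receptors, mitochondrial pores and proteins that turn family members over. With A485 none was called, and 2 of 44 fell past the adjusted p alone, where 12.6% of all genes passed it in either direction. These were VDAC1, a channel of the outer mitochondrial membrane (12609 and 12493 against 6685 and 6914, -0.88 ± 0.16, adjusted p = 0.0213), and the tumour necrosis factor receptor TNFRSF1A (-0.90 ± 0.20, adjusted p = 0.0367). The closest on the higher side were BTRC, a ubiquitin ligase subunit, with a difference of 0.63 (adjusted p = 0.0725), and the initiator caspase CASP9, with 0.73 (adjusted p = 0.097). The effector BAX, the partner of BAK1, had a difference of 0.05, and the BH3-only gene BBC3, which encodes PUMA, also had 0.05.

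With MS-275 none of 45 was called. The smallest p on the lower side was that of BIRC5, which encodes survivin, a mitotic member of the inhibitor of apoptosis family, at 1380 and 1487 in Control3 and 76.5 and 87.7 with MS-275 (-4.11 ± 0.33, adjusted p = 0.142). Its groups stood far apart. BCL2L12 followed with -1.42 ± 0.46 (adjusted p = 0.375). On the higher side were the death receptor TNFRSF10B (0.88 ± 0.30, adjusted p = 0.40) and BNIP3, a mitophagy receptor with a BH3 domain (1.21 ± 0.48, adjusted p = 0.481). With the replicate block, 2 of 45 were called higher, beside 7.74% of all genes, and 3 lower, beside 6%. Those higher were BNIP3 (adjusted p = 1.49e-07) and the pro-survival gene BCL2A1 (0.00252). BCL2A1 was near the lower end of the values, at 0 and 22.2 in Control3 and 35.8 and 67.8 with MS-275. Those lower were BIRC5 (3.89e-11), BCL2L12 (1.16e-05) and ENDOG (0.00385). BAX and BBC3 were not called, with pooled differences of 0.26 and -0.11.

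With pyruvate 12 of 42 were called higher, beside 31% of all genes, and 10 lower, beside 23.1%, so both counts were near the share over all genes. Among those higher were BIRC6 (192 to 1415 on average, log2 fold change 2.88) and XIAP (106 to 1065, 3.34), both inhibitors of caspases, and CYCS, which encodes cytochrome c (867 to 2720, 1.65). Among those lower were TNFRSF1A (-1.26), the pro-survival gene BCL2L2 (-1.42), TNFRSF10B (-1.24) and the adaptor TRADD (-2.21). Their adjusted p-values ran from 5.2e-09 to 2.87e-08. BAX was also called lower (-1.17, adjusted p = 6.82e-08) and had 0.14 with the length and GC trend removed. BBC3 had -0.11 and was not called. Of the 22 calls, 10 were kept when the length and GC trend was removed. BIRC6 (1.71) and XIAP (1.73) were among those kept. CYCS (0.34), TNFRSF1A (-0.32), BCL2L2 (-0.65), TNFRSF10B (-0.79) and TRADD (-0.72) then lay under the fold for a call. Other genes became calls with the trend removed. BBC3 (1.48) and BCL2L12 (1.18) were then higher, and CFLAR (-1.50), VDAC2 (-1.29), AIFM1 (-1.89) and MTCH2 (-1.30) lower. In all, 10 of 42 were then called higher, beside 21.4% of all genes, and 6 lower, beside 10.4%.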

How the data were processed

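RNA was measured by bulk RNA-seq in 12 IMR90 libraries, 2 per group, grouped by their titles. Per the submitters' processing notes and the study's methods, the authors used Trim Galore (version 0.6.10), HISAT2 (2.2.1) against hg38, SAMtools (1.7), featureCounts (2.0.6) and DESeq2 (1.34.0). The deposited values are a signal, that is, the reads of each gene over the size factor of its library. Annotation and strand setting are not given in the sources used here. All values were whole multiples of 1 read (100%, within 0.05 read), which gave the read totals, and the edgeR and DESeq2 fits rest on the reads so recovered. Every listed gene had at least 10 reads in 2 libraries of its A485 or MS-275 table, and 20 in the pyruvate table, so a gene below this could not be seen.

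Values were transformed to log2(value + 1), a scale that understates the change of low genes, and the tested genes were those averaging 10 or more over 4 libraries. Tests used limma (version 3.58.1, R 4.3.3; eBayes with trend, no covariate). The method was tested on simulated data with independent libraries. These held no shared deviation by replicate number and no GC trend, so the test does not cover those features of the MS-275 and pyruvate libraries. Calls required an adjusted p below 0.05 (Benjamini-Hochberg over all genes tested) and a log2 difference beyond 1 in either direction. The A485 and MS-275 effects were set against each other in 1 limma contrast over 8 libraries, with a spread shared by both experiments. Exon length, GC content and overlaps came from GENCODE annotation of hg38. Alternatives were pseudocounts, filters, scalings, no trend, a replicate block, removal of a length and GC trend (spline, 5 degrees of freedom), edgeR (4.0.16), DESeq2 (1.42.0), a lower fold, and leaving out each library.

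The text names all 10 family genes and, from the list of 48, up to 4 called genes with the smallest adjusted p in each direction, or, where none was called, the 2 with the smallest p in each direction. One gene that this rule names is not reported here. BAX, BBC3, BCL2A1 and ENDOG were named besides, after their values were seen. So were genes that became calls with pyruvate once the length and GC trend was removed. Members and lists were chosen with earlier results of these data known. Mouse muscle libraries of the series were not used here.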

Additional observations from a re-analysis of the deposited data

Results flagged for a closer look

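BCL2L11 was flagged because its response differed between the 2 inhibitors by a test of the difference itself. It was 3.12 higher on the log2 scale with A485 than with MS-275 (adjusted p = 0.0487 by limma, n = 2 libraries in each of 4 groups). Both A485 libraries lay above both of their controls and both MS-275 libraries below both of theirs.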

How the results depend on the processing

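With 2 libraries per group, calls with A485 were sensitive to the spread estimate. Genes called with A485 numbered 1667 (532 higher, 1135 lower), 2587 (1672 higher, 915 lower) with equal library totals, 1762 (751 higher, 1011 lower) with quantile normalization, 840 without the intensity trend, and 2535 with the replicate block and the length and GC trend removed. Without 1 library each they ran from 117 to 844. Family genes called with A485 were 1 with equal totals, 0 without the trend (BCL2L11 adjusted p = 0.0611, PMAIP1 0.0868), and 0 to 2 without 1 library each. They were 3 with DESeq2 (BMF added) and 3 at the lower fold of 0.58 (BID added), and 2 in each of the other fits without a block.

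The replicate numbers are shared by title only (correlation of deviations 0.316 for A485, 0.728 for MS-275 and 0.002 for pyruvate). The replicate block raised MS-275 calls from 0 to 2183 genes and 1 family gene, or 2110 genes and 1 family gene with the length and GC trend also removed, and made BMF a call with A485 (adjusted p = 0.0281). It put 3 family genes past the threshold in the difference between inhibitors (BCL2L11, BMF and PMAIP1), and 2 with the trend removed, against 0 with a pseudocount of 0.1 and 0 without the intensity trend. DESeq2 called 575 genes with MS-275, and leaving out 1 library each gave 0 to 419.

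With pyruvate, removing the trend left 3786 genes and 2 family genes, or 3809 and 2 with the block. Calls split 4402 higher and 1741 lower with equal totals, and 3143 and 3228 with quantile normalization, against 3726 and 2777. PMAIP1 was 0.88 under quantile normalization and not called.

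Signs turned for effects that had not passed the test. With equal totals, BCL2L1 was 0.196 with A485, BAK1 was -0.023 with MS-275, and the differences between inhibitors were 0.152 for BCL2L1 and 0.127 for BID. Without 1 library each, the A485 values ran from -0.427 to 0.033 for BCL2L1 and from -0.09 to 0.118 for MCL1. Those with MS-275 ran from -0.27 to 0.644 for BCL2L1, -0.394 to 0.634 for BAK1, -0.323 to 0.116 for MCL1, -1.045 to 0.174 for BID, -0.693 to 0.558 for BAD and -0.433 to 0.21 for BMF. The cause was not tested.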
